A study of Mus musculus with 95 samples.

Results

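The genes described here make or control the making of cholesterol. They were the rows of each library's expression table whose gene symbol was Hmgcs1, Sqle, Lss, Idi1, Fdft1, Fdps, Dhcr7 or Insig1, which gave 8 of 25407 gene symbols. The rule uses gene names alone and no measured value, but the names were chosen with earlier results of these data known. The libraries came from male mice of the BKS.Cg-m +/+ Leprdb/J strain at 16 weeks of age. The groups were db/db PIO, db/db, db/+ PIO and db/+, where db/db mice carry 2 mutant copies of the leptin receptor gene and become obese and diabetic, db/+ mice carry 1 copy and serve as the non-diabetic group, and PIO marks pioglitazone in the chow at 15 mg/kg for 11 weeks. Each group was sampled in sciatic nerve (SCN), dorsal root ganglia (DRG), isolated kidney glomeruli (Glom) and kidney cortex, with 6 libraries per group and 5 in DRG db/db, 95 in all. The mutation is carried by the whole animal, so diabetes, obesity and the lack of leptin signalling cannot be told apart in these groups. Pioglitazone, an agonist of the nuclear receptor PPAR gamma, was given to whole animals.

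Cholesterol is built from acetyl-CoA through mevalonate, isoprenoid units, squalene and lanosterol. Its enzymes are controlled together by the SREBP transcription factors, which are held in the endoplasmic reticulum by Insig proteins when sterols are plentiful and released to the nucleus when sterols are scarce. In peripheral nerve, Schwann cells make much of the cholesterol of the myelin sheath themselves, and kidney tubule cells make and take up cholesterol. Among the 8 genes, Hmgcs1 makes HMG-CoA, Idi1 converts one isoprenoid unit into the other, Fdps joins them to farnesyl diphosphate, Fdft1 makes squalene, Sqle oxidises it, Lss closes it to lanosterol, and Dhcr7 carries out the last reduction to cholesterol. Insig1 is the brake, an SREBP target that retains the SREBP complex.

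In build mm9 (NCBI 37, GENCODE vM1), Insig1 lies on chromosome 5 from 28397952 to 28405201 on the plus strand. Sqle lies on chromosome 15 from 59146632 to 59162747 on the plus strand. Idi1 lies on chromosome 13 from 8884852 to 8891641 on the plus strand. Lss lies on chromosome 10 from 75994333 to 76019883 and Dhcr7 on chromosome 7 from 151009050 to 151034315, both on the plus strand. Fdft1 lies on chromosome 14 from 63763990 to 63796630 and Fdps on chromosome 3 from 88897514 to 88905881, both on the minus strand.

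The RefSeq promoter table (GRCm38.p6, 250 bases before to 50 after each start) held 5 of the 8 genes, Hmgcs1, Idi1, Lss, Dhcr7 and Insig1, with 7 promoters in all. The motifs searched, on both strands, were TCACNCCAC, a core of the sterol regulatory element that SREBP binds, CCAAT, the core of the box that NF-Y binds, and GGGCGG, the core of the GC box. TCACNCCAC was found in 1 of the 7 promoters, that of Hmgcs1, and in 1.24% of all 32851 promoters in the table. CCAAT was found in 5 of the 7 promoters, at least 1 for each gene, and in 37.4% of all promoters. GGGCGG was found in 6 of the 7 promoters, at least 1 for each gene, and in 35.7% of all promoters. No matches overlapped one another in these 7 promoters, and a match is a description of the letters and not of a bound site. The window around the Hmgcs1 match (chr13:119690204-119690232, plus strand) and the promoters of Insig1 (chr5:28071162-28071461, plus strand) and Idi1 (chr13:8885356-8885655, plus strand), are printed because Hmgcs1 alone of these 5 genes held the SREBP core and because Insig1 and Idi1 were among the genes with the widest gap between nerve and kidney. They are given 5′ to 3′ in GRCm38.p6, with TCACNCCAC, CCAAT and its complement ATTGG in capitals.
Hmgcs1: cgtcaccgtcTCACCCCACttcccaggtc
Insig1: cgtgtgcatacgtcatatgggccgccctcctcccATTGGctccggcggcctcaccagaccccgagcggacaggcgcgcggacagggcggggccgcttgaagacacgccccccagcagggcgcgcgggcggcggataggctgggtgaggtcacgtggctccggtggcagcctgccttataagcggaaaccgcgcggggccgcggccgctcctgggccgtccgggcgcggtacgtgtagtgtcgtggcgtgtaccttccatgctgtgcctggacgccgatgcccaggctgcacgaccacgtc
Idi1: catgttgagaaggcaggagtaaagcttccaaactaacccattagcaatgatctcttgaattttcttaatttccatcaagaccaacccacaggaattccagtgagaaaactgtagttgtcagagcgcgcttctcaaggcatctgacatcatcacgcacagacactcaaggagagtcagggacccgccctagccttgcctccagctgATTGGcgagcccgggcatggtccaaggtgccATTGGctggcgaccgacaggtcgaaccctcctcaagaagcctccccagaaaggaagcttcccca

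The files give FPKM, fragments per kilobase of transcript scaled to the fragments mapped in the library, for 25407 symbols per library. Between 7333 and 10432 symbols were above 0 in a library, and among genes with a median of at least 1 FPKM over their values only 45.0% to 47.3% of entries were above 0, depending on the tissue. An exact 0 was therefore taken as missing and not as a level. Of the 760 entries of the 8 genes, 210 (27.6%) were above 0, with 33 of 192 in SCN, 27 of 184 in DRG, 83 of 192 in Glom and 67 of 192 in cortex. Counting only members with values in the tissue, the share was 22.9% in SCN, 23.5% in DRG, 57.6% in Glom and 46.5% in cortex. For all genes with a median of at least 1 FPKM it was 46.3%, 47.3%, 47.1% and 45.0% in the same order. The depth of single libraries is not in the files, so only the spread between libraries measures the error of a value. The FPKM of a library summed to between 129009 and 601310, and the highest sum was in cortex db/db replicate 6, against 314578 in the cortex library next to it. Each labelled tissue had high levels of at least 1 of its markers. The markers of myelinating Schwann cells summed to a median of 28964.44 FPKM in SCN. In all marker sums given here an exact 0 counts as 0, so a sum also depends on which markers had a value. The median over values above 0 was 3418.39 FPKM for the neurofilament gene Nefl in DRG, 2278.77 FPKM for the podocyte gene Podxl in Glom and 15527.85 FPKM for the proximal tubule gene Kap in cortex. Fabp4, an adipocyte gene, had a median of 6880.375 FPKM in SCN and 9.39 FPKM in DRG. Other markers were listed at 0 in every library of their own tissue, namely 5 of 10 for myelinating Schwann cells in SCN, 3 of 9 for sensory neurons in DRG, 3 of 6 for podocytes in Glom and 4 of 9 for proximal tubule in cortex. The summed markers reached 0 in at least 1 library each of DRG db/db, Glom db/db, cortex db/+ PIO and cortex db/+, where even the top markers were listed at 0. In such bulk samples, fewer cells of a type and less RNA per cell cannot be told apart.

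The 8 genes differed widely in how many of the 95 libraries gave a value. Insig1 had a value in 64 libraries, Sqle in 54, Lss in 37 and Idi1 in 29. Dhcr7 had a value in 13 libraries, Fdps in 9 and Fdft1 in 4. Hmgcs1 was listed at 0 in all 95 libraries, so no level is given for it. These 4 genes, Insig1, Sqle, Lss and Idi1, carry most of the results.

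**Figure D1:**
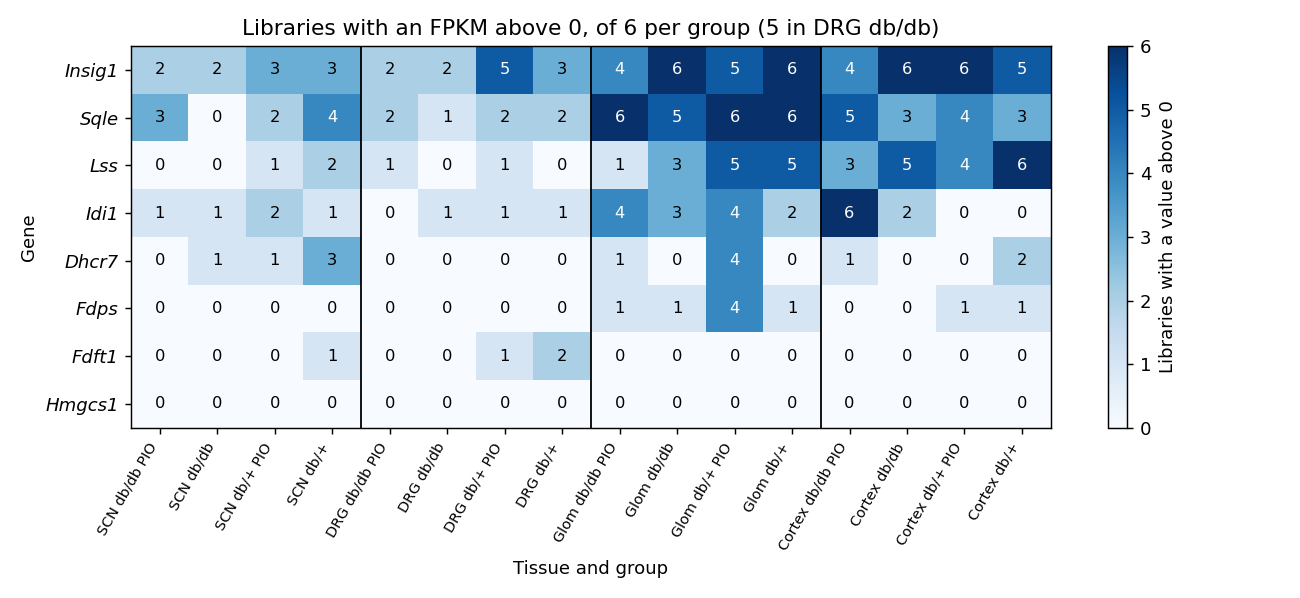
Number of libraries with an FPKM above 0 for each of the 8 genes (rows) in each of the 16 groups (columns, tissue and treatment), of 6 libraries per group and 5 in DRG db/db. Insig1 had values in all 16 groups, Hmgcs1 in none, and Idi1 in cortex had values in 6 db/db PIO, 2 db/db, 0 db/+ PIO and 0 db/+ libraries.

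Among values above 0, Insig1, Sqle and Idi1 were higher in the nervous tissues than in the kidney. For each of these genes, fewer libraries gave a value in SCN and in DRG than in either kidney tissue. Insig1 had a median of 130.775 FPKM in SCN (100.08 to 142.08, 10 values), 52.14 FPKM in DRG (47.81 to 60.56, 12 values), 8.16 FPKM in Glom (6.42 to 12.65, 21 values) and 19.14 FPKM in cortex (10.15 to 29.51, 21 values). No SCN value overlapped with a DRG value and no DRG value with a kidney value. Sqle, the enzyme that oxidises squalene, had a median of 63.08 FPKM in SCN (35.23 to 74.65, 9 values), 96.78 FPKM in DRG (90.11 to 113.96, 7 values), 3.01 FPKM in Glom (1.91 to 5.73, 23 values) and 19.67 FPKM in cortex (10.16 to 33.03, 15 values). Its 4 tissues did not overlap, and DRG stood above SCN, the other way round from Insig1. The share of all genes that separated as fully between tissues was not counted.

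Idi1, the isopentenyl diphosphate isomerase, had a median of 95.54 FPKM in SCN (62.86 to 108.98, 5 values), 76.12 FPKM in DRG (74.76 to 80.59, 3 values), 8.21 FPKM in Glom (6.54 to 11.7, 13 values) and 16.96 FPKM in cortex (14 to 19.56, 8 values). SCN and DRG overlapped for Idi1, and every value in both lay above every kidney value. Lss, the lanosterol synthase, had a median of 19.35 FPKM in SCN (17.55 to 20.72, 3 values), values of 25.44 FPKM in 1 DRG db/db PIO library and 10.01 FPKM in 1 DRG db/+ PIO library, a median of 6.865 FPKM in Glom (5.53 to 8.39, 14 values) and 6.08 FPKM in cortex (2.41 to 8.94, 18 values). The 2 kidney tissues overlapped over most of their range for this gene.

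The remaining genes had few values. Dhcr7, the last enzyme of the pathway, had a median of 15.91 FPKM in SCN (14.77 to 20.03, 5 values), 14.92 FPKM in Glom (8.87 to 19.7, 5 values) and 6.36 FPKM in cortex (5.2 to 7.21, 3 values), and no value in DRG. Fdps, which makes farnesyl diphosphate, had 7 values in Glom between 18.73 and 25.21 FPKM, 2 values in cortex at 20.29 and 21.96 FPKM, and none in SCN or DRG. The 2 kidney tissues did not separate for Fdps. Fdft1, the squalene synthase, had a value of 66.1 FPKM in 1 SCN db/+ library, of 89.76 FPKM in 1 DRG db/+ PIO library and of 85.38 and 91.43 FPKM in 2 DRG db/+ libraries, with no value in the kidney.

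**Figure D2:**
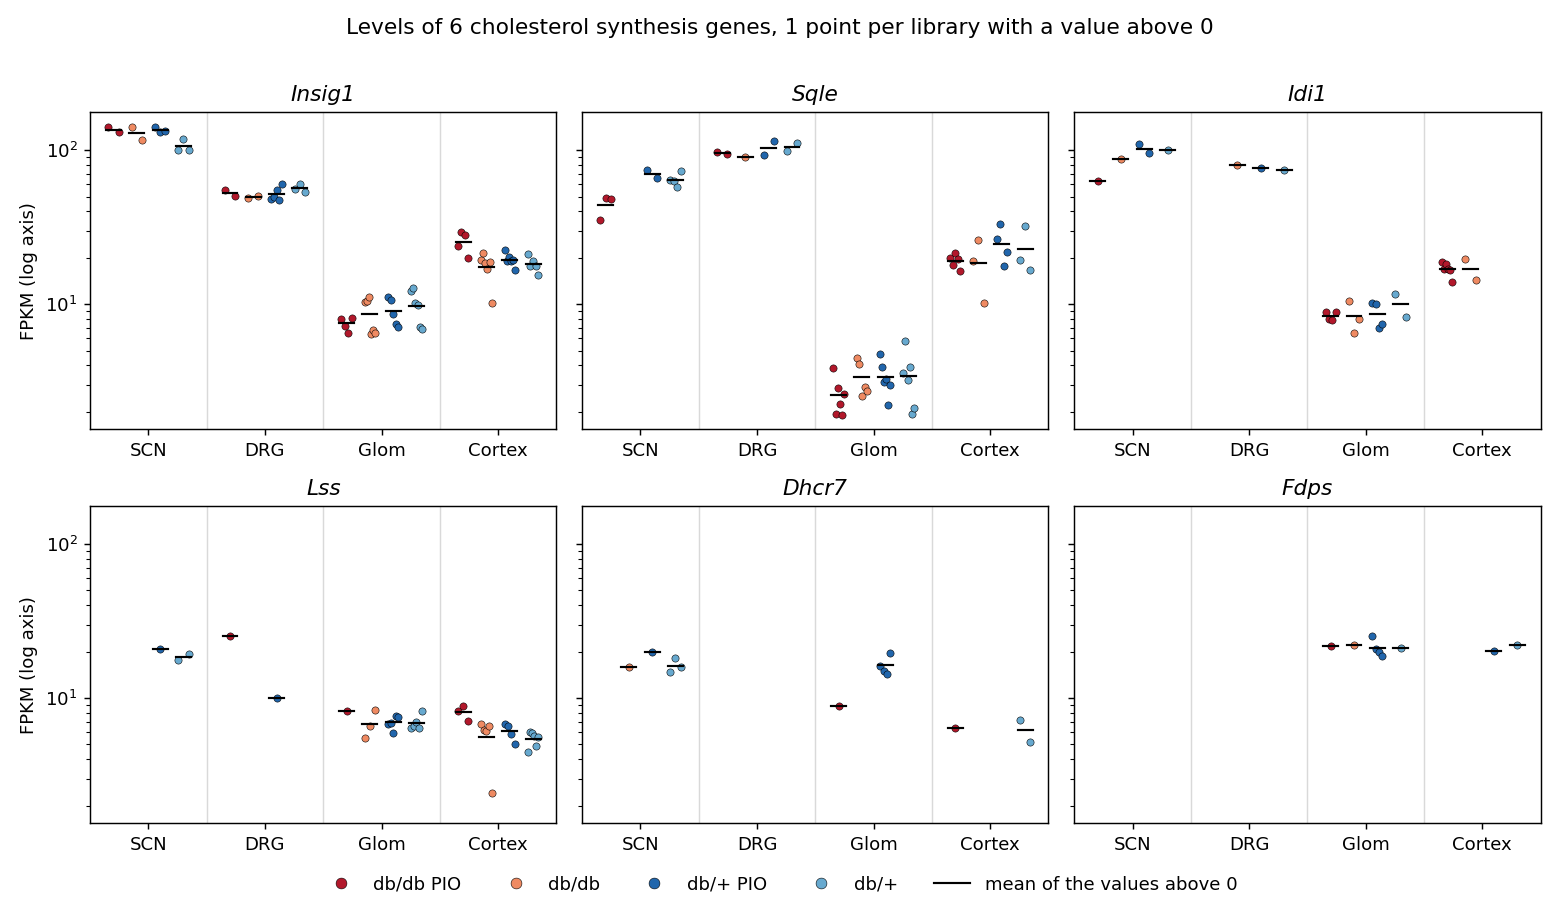
FPKM (log axis) of 6 of the genes in SCN, DRG, Glom and cortex. Each point is a library with a value above 0, coloured by group (db/db PIO, db/db, db/+ PIO, db/+), and the black lines are means of those values. Insig1 lies between 100.08 and 142.08 FPKM in SCN and between 6.42 and 12.65 FPKM in Glom, and Sqle is the gene with the lowest values, between 1.91 and 5.73 FPKM in Glom.

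The order of the tissues was tested with limma on log2(FPKM + 1), with Benjamini-Hochberg adjustment over all genes tested and a threshold of 0.05. A gene was tested where both groups had at least 3 values. In the db/+ libraries alone, the genes that could be tested passed in every comparison, as did most genes in the tissues (79% in SCN minus DRG, 67.1% in SCN minus Glom, 76.4% in SCN minus cortex, 79.1% in DRG minus Glom, 79.5% in DRG minus cortex and 75.5% in Glom minus cortex). Passing is thus not particular to the cholesterol genes, and the size of the difference is the result. Insig1 averaged 106 ± 10.4 FPKM in SCN (SD, n = 3), 56.7 ± 3.49 FPKM in DRG (SD, n = 3), 9.80 ± 2.43 FPKM in Glom (SD, n = 6) and 18.2 ± 2.11 FPKM in cortex (SD, n = 5). Its log2 difference was 0.89 (SE 0.18) for SCN minus DRG, 3.34 (SE 0.16) for SCN minus Glom and 2.49 (SE 0.16) for SCN minus cortex. For DRG minus Glom it was 2.45 (SE 0.16), for DRG minus cortex 1.59 (SE 0.16), and for Glom minus cortex -0.86 (SE 0.13). Sqle averaged 64.3 ± 6.42 FPKM in SCN (SD, n = 4), 3.40 ± 1.38 FPKM in Glom (SD, n = 6) and 22.7 ± 8.33 FPKM in cortex (SD, n = 3). Its log2 difference was 3.94 (SE 0.22) for SCN minus Glom, 1.51 (SE 0.26) for SCN minus cortex and -2.43 (SE 0.24) for Glom minus cortex.

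A fit of all 95 libraries with group as a term, chosen after the values had been seen, brought in further members. Like the db/+ fit, it took libraries of different tissues as independent, though these may come from the same mice. In SCN minus Glom, 5 of 5 members tested were higher in SCN (73.7% of all genes passed in either direction, 2648 of 8789 as higher). In SCN minus cortex 5 of 5 were higher (80.3% passed, 4461 of 8567 as higher). In DRG minus Glom (83.7% passed, 2665 of 7993 as higher) 3 of 3 were higher in DRG. In DRG minus cortex (83.3% passed, 3417 of 7944 as higher) 3 of 3 were also higher. In Glom minus cortex (78.4% passed), Idi1, Insig1 and Sqle were lower and Lss and Dhcr7 higher. In SCN minus DRG (82.8% passed), Insig1 was higher at 1.22 (SE 0.11, adjusted p = 4.79e-16, limma), Sqle lower at -0.78 (SE 0.16, adjusted p = 1.23e-05, limma), and Idi1 did not pass at 0.24 (adjusted p = 0.150, limma). Idi1 differed by 3.21 (SE 0.11) in SCN minus Glom, 2.24 (SE 0.13) in SCN minus cortex and -0.97 (SE 0.10) in Glom minus cortex. Lss differed by 1.38 (SE 0.16) in SCN minus Glom and 1.62 (SE 0.16) in SCN minus cortex, and Dhcr7 by 1.16 (SE 0.16) in SCN minus cortex.

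The median log2 difference of all genes tested in this fit moved with the scaling of the libraries. It was 0.20 in SCN minus DRG, -0.22 in DRG minus Glom and 0.26 in Glom minus cortex with FPKM as deposited, and -0.03, 0.05 and -0.02 after median-of-ratios rescaling. Most member differences lay well outside these shifts. Lss in Glom minus cortex did not, at 0.25 as deposited, -0.16 after median-of-ratios rescaling and -0.25 after quantile normalization, and neither did Dhcr7, whose Glom minus cortex difference of 0.69 fell short of the threshold after rescaling (0.34, adjusted p = 0.186, limma) and whose SCN minus Glom difference of 0.46 did so after quantile normalization (0.32, adjusted p = 0.232, limma). Entering each 0 as a value of 0 left no member passing between tissues in db/+ except 1 each in DRG minus Glom and DRG minus cortex, which was not Insig1, whose difference changed sign there.

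Other genes of the pathway were set beside the 8, from lists of further enzymes, SREBP control genes and sterol handling genes. Of 13 further enzymes, 8 could be tested over all libraries in SCN minus Glom, with 7 higher and 1 lower and a median log2 difference of 2.45, against -0.11 for all genes. Cyp51, the lanosterol demethylase, differed by 3.06 (SE 0.08), and Sc5d, the lathosterol oxidase, by 3.40 (SE 0.20). Ebp, a sterol isomerase, was the exception at -0.49 (SE 0.04). Of the 8 enzymes tested in SCN minus cortex, 5 were higher and 3 (Acat2, Ebp and Mvd) lower, and of the 10 tested in Glom minus cortex, 2 were higher and 8 lower, with a median of -0.91. Mvd, the mevalonate diphosphate decarboxylase, differed by -2.60 (SE 0.11) and Cyp51 by -1.64 (SE 0.13) in Glom minus cortex. Scap, which escorts SREBP, differed by 0.85 (SE 0.09) in SCN minus cortex, and Srebf2, which encodes SREBP-2, had no value in SCN and DRG. The fatty acid synthesis genes under SREBP-1 were higher in SCN for 5 of 5 genes tested against Glom (median 3.92) and 4 of 4 against cortex (median 4.79). Adipocytes also make fatty acids and cholesterol, and the adipocyte markers of SCN reached 16830.2 FPKM in sum in a db/db PIO library. Their part in the tissue differences was not tested.

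No member passed the test for diabetes or pioglitazone within any of the 4 tissues. Across the 16 comparisons of 2 groups, 10 had at least 1 member with enough values, and of the 26 member tests in them limma called 0 at an adjusted p below 0.05 and 4 had an unadjusted p below 0.05. These were Insig1 in SCN, and Insig1 (in 2 comparisons) and Lss in cortex. Such p-values were common among all genes in the same comparisons. They were reached by 659 of 5142 genes in SCN db/+ PIO minus db/+. In cortex they were reached by 868 of 3890 genes in db/db PIO minus db/db and 1221 of 3865 in db/db PIO minus db/+ PIO. In the other 6 comparisons no member had 3 values in both groups.

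In SCN, Insig1 was the only member with enough values for a test, and only for pioglitazone in db/+. It had 140.65, 131.01 and 133.72 FPKM in db/+ PIO nerves, against 100.8, 118.49 and 100.08 FPKM in db/+ nerves. The groups did not overlap, and the log2 difference of 0.34 (SE 0.10) had an unadjusted p of 0.00919 and an adjusted p of 0.261 (limma), in a comparison in which 0.0778% of 5142 genes passed. In the other SCN groups, Insig1 had 141.21 and 130.54 FPKM in db/db PIO and 142.08 and 115.56 FPKM in db/db nerves. Sqle had 35.23, 49.13 and 48.44 FPKM in db/db PIO nerves, against 74.65 and 65.98 FPKM in db/+ PIO nerves, no value in db/db, and 63.75, 63.08, 57.46 and 72.97 FPKM in db/+ nerves. All 3 db/db PIO values lay below the lowest db/+ and db/+ PIO values, but with 2 values in db/+ PIO, none in db/db and no comparison planned between db/db PIO and db/+, the difference was not tested. The share of all SCN genes that separated as fully as Insig1 or Sqle was not counted. Idi1 had 62.86 FPKM in 1 db/db PIO library, 87.91 FPKM in 1 db/db library, 108.98 and 95.54 FPKM in db/+ PIO and 99.56 FPKM in 1 db/+ library, with no test.

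Further cholesterol genes could be tested in SCN. In db/db PIO minus db/+ PIO (33.8% of all genes passed), Hsd17b7, a 3-ketosteroid reductase, averaged 24.1 ± 4.28 FPKM in db/db PIO (SD, n = 3) and 31.2 ± 3.61 FPKM in db/+ PIO nerves (SD, n = 4), and fell by 0.37 on the log2 scale (SE 0.13, adjusted p = 0.0464, limma). Ebp fell by 0.21 (SE 0.07, adjusted p = 0.0256, limma), and the other 2 of 4 enzymes tested did not pass. Lipa, the lysosomal acid lipase that frees cholesterol from its esters, rose by 0.98 (SE 0.20), and Soat1, which esterifies cholesterol for storage, by 0.55 (SE 0.19), as 1 of 2 genes of uptake and transport and 1 of 3 of efflux and storage tested. The calls held in 3 of 6 alternatives for Hsd17b7, 4 of 7 for Ebp, 5 of 6 for Lipa and 3 of 6 for Soat1, and Lipa turned to -0.40 with each 0 as a value. In db/db PIO minus db/db (10.1% passed), Cyp51 averaged 26.4 ± 1.82 FPKM in db/db PIO (SD, n = 3) and 35.5 ± 2.56 FPKM in db/db nerves (SD, n = 5), and fell by 0.41 (SE 0.09, adjusted p = 0.00933, limma), as 1 of 3 enzymes tested. In db/db minus db/+ (14.9% passed), none of 4 enzymes passed. Marker sums of these groups count an exact 0 as 0 and also depend on which markers had a value. The 9 adipocyte markers summed to 7231.02 to 16830.2 FPKM in db/db PIO and 2428.35 to 8591.48 FPKM in db/db nerves. They summed to 1.94 to 9665.29 FPKM in db/+ PIO and 0 to 2873.66 FPKM in db/+ nerves. The sums of the myelinating Schwann cell markers had medians of 24641.88, 20898.14, 36863.7 and 36162.11 FPKM in the same order. The macrophage markers had medians of 336.86 FPKM in db/db PIO, 80.25 FPKM in db/db, 146.49 FPKM in db/+ PIO and 218.33 FPKM in db/+ nerves. Their part in the differences was not tested, and 3 of the 9 adipocyte and 5 of the 10 Schwann cell markers were listed at 0 in every SCN library.

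In DRG, Insig1 could be tested for pioglitazone in db/+ only. It had 48.28, 49.35, 54.99, 47.81 and 60.27 FPKM in db/+ PIO ganglia, against 55.79, 60.56 and 53.77 FPKM in db/+ ganglia, and the groups overlapped. The log2 difference was -0.12 (SE 0.08, adjusted p = 0.552, limma), where 0% of 4153 genes passed and 403 had an unadjusted p below 0.05. Insig1 had 55.11 and 50.51 FPKM in db/db PIO and 48.65 and 50.38 FPKM in db/db ganglia. Sqle had 96.78 and 95.04 FPKM in db/db PIO, 90.11 FPKM in 1 db/db library, 92.4 and 113.96 FPKM in db/+ PIO, and 99.33 and 111.41 FPKM in db/+ ganglia, and was not tested, since no group had 3 values. In db/db PIO minus db/+ PIO (8.64% passed), Cyp51 fell by 0.24 (SE 0.06), as 1 of 2 enzymes tested. The exporter Abcg1 fell by 0.34 (SE 0.08), as 1 of 6 genes of sterol efflux and storage tested. Each of the 2 calls held in 3 of 6 alternatives, and Abcg1 turned to 0.98 with each 0 as a value. Cyp51 averaged 19.9 ± 1.57 FPKM in db/db PIO (SD, n = 3) and 23.7 ± 1.10 FPKM in db/+ PIO ganglia (SD, n = 4). No gene of the cholesterol lists passed in db/db minus db/+ (4.13% of all genes passed) or in db/db PIO minus db/db (0% passed, with 325 of 3794 genes at an unadjusted p below 0.05).

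In Glom, 4 members had enough values in at least 1 comparison, 3 in each comparison of 2 groups, and none passed. For db/db minus db/+ (25.4% of all genes passed), the log2 difference was -0.17 (SE 0.16) for Insig1, -0.02 (SE 0.12) for Lss and 0.02 (SE 0.19) for Sqle. For db/db PIO minus db/db (23.1% passed), it was -0.15 (SE 0.18) for Insig1, -0.29 (SE 0.19) for Sqle and 0.03 (SE 0.17) for Idi1. For db/db PIO minus db/+ PIO (8.41% passed), it was -0.22 (SE 0.19) for Insig1, -0.29 (SE 0.18) for Sqle and -0.02 (SE 0.16) for Idi1. For db/+ PIO minus db/+ (0% of 4419 genes passed, 118 at an unadjusted p below 0.05), the 3 members tested lay between -0.10 and 0.02. For the pioglitazone response in db/db minus that in db/+ (9.71% passed), Insig1 was at -0.05 (SE 0.25) and Sqle at -0.31 (SE 0.27).

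In Glom db/db, the values of Insig1 fell into a higher and a lower set of libraries, and those of db/db PIO lay closer together. Insig1 had 8.06, 7.27, 6.54 and 8.16 FPKM in db/db PIO replicates 3 to 6. It had 10.29, 10.5 and 11.09 FPKM in db/db replicates 1 to 3, and 6.42, 6.82 and 6.54 FPKM in db/db replicates 4 to 6. In db/+ PIO it had 11.13, 10.59, 8.7, 7.42 and 7.12 FPKM in replicates 1, 2, 4, 5 and 6, and in db/+ 12.18, 12.65, 10.11, 9.86, 7.1 and 6.91 FPKM in replicates 1 to 6. In db/db, db/+ PIO and db/+, replicates 1 and 2 stood above 10 FPKM and replicates 5 and 6 below 8 FPKM, and db/db PIO had no value in replicates 1 and 2. Sqle had 3.88, 1.93, 2.84, 2.26, 1.91 and 2.6 FPKM in db/db PIO replicates 1 to 6 and 4.5, 4.08, 2.53, 2.91 and 2.74 FPKM in db/db replicates 2 to 6. It had 4.76, 3.91, 3.11, 3.28, 2.2 and 3.01 FPKM in db/+ PIO and 3.56, 5.73, 3.2, 3.89, 1.94 and 2.11 FPKM in db/+ replicates 1 to 6. What the replicate numbers stand for is not given in the labels.

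Lss in Glom had 8.21 FPKM in 1 db/db PIO library, 5.53, 6.6 and 8.39 FPKM in db/db, 5.94 to 7.65 FPKM with a median of 6.93 in 5 db/+ PIO libraries, and 6.35 to 8.28 FPKM with a median of 6.58 in 5 db/+ libraries. The groups overlapped. Dhcr7 had values in 4 db/+ PIO libraries (16.1, 14.92, 14.44 and 19.7 FPKM), in 1 db/db PIO library (8.87 FPKM) and in no db/db or db/+ library of Glom, so no comparison could be made.

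Among the further enzymes, Mvd fell in Glom db/db PIO relative to db/db. It averaged 3.23 ± 1.203 FPKM in db/db PIO (SD, n = 4) and 4.64 ± 0.721 FPKM in db/db (SD, n = 5), and fell by 0.45 (SE 0.16, adjusted p = 0.0472, limma). Of the 9 enzymes tested, 2 passed, both lower, a share near the 23.1% of all genes that passed in this comparison, and the median of the 9 was -0.02, against -0.04 for all genes. The Mvd call was near the threshold and held in 1 of 6 alternatives. On the export side, Abca1, which loads cholesterol onto HDL, averaged 6.12 ± 0.300 FPKM in db/db PIO (SD, n = 4) and 3.36 ± 0.647 FPKM in db/db (SD, n = 5) and rose by 0.72 (SE 0.11). Npc1, which moves cholesterol out of lysosomes, rose by 0.25 (SE 0.07). The calls held in 5 of 6 alternatives for Abca1 and 4 of 6 for Npc1, in a comparison in which 23.1% of all genes passed.

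For diabetes in Glom, where 25.4% of all genes passed, Abcg1 and Soat1 rose and the enzyme Ebp fell. Abcg1, a cholesterol exporter, averaged 7.37 ± 0.783 FPKM in db/db (SD, n = 3) and 3.35 ± 0.592 FPKM in db/+ (SD, n = 6), a rise by 0.95 (SE 0.12, adjusted p = 4.70e-05, limma), and Soat1 rose by 0.57 (SE 0.16). They were 2 of 3 genes tested of the 8 genes of sterol efflux and storage. With each 0 as a value, Abcg1 turned to -0.58 and Ebp to 0.55, and neither passed. Ebp averaged 20.8 ± 1.59 FPKM in db/db (SD, n = 5) and 25.7 ± 2.41 FPKM in db/+ (SD, n = 4) and fell by 0.29 (SE 0.08), as 1 of 9 enzymes tested. In db/db PIO minus db/+ PIO (8.41% passed), Ebp fell by 0.26 (SE 0.07) and Sc5d rose by 0.50 (SE 0.11), as 2 of 10 enzymes. Abcg1 rose by 0.61 (SE 0.12) and Abca1 by 0.56 (SE 0.13). Npc1 also passed there, with alternatives between -0.39 and 0.28. The calls held in 5 of 7 alternatives for Ebp and in 4 of 6 for Sc5d and for Npc1. Those of Abcg1 and Abca1 each held in 5 of 6. The macrophage markers, whose cells also express Abca1, Abcg1 and Soat1, summed to 8.49 to 69.07 FPKM in db/db PIO, 50.91 to 236.97 FPKM in db/db, 60.21 to 115.75 FPKM in db/+ PIO and 33.13 to 175.1 FPKM in db/+ glomeruli, and their part was not tested. Elovl6, a fatty acid elongase under SREBP-1, averaged 0.993 ± 0.333 FPKM in db/db PIO (SD, n = 6), 3.30 ± 0.562 FPKM in db/db (SD, n = 6) and 1.30 ± 0.317 FPKM in db/+ (SD, n = 5).

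In cortex, 3 members had enough values and none passed. For db/db minus db/+ (10.3% of all genes passed), the log2 difference was -0.08 (SE 0.14) for Insig1, -0.01 (SE 0.17) for Lss and -0.32 (SE 0.30) for Sqle. For db/+ PIO minus db/+ (0.025% passed), it was 0.09 (SE 0.14), 0.13 (SE 0.18) and 0.14 (SE 0.28) in the same order. Insig1 stood highest in db/db PIO. It had 23.8, 29.51, 28.34 and 19.81 FPKM in db/db PIO, against 10.15 to 21.38 FPKM with a median of 18.685 in 6 db/db libraries, 16.67 to 22.38 FPKM with a median of 19.285 in 6 db/+ PIO libraries and 21.28, 17.68, 18.96, 17.61 and 15.54 FPKM in db/+ libraries. Of the 4 db/db PIO values, 3 lay above every value of the other groups and 1 within their range.

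**Figure D3:**
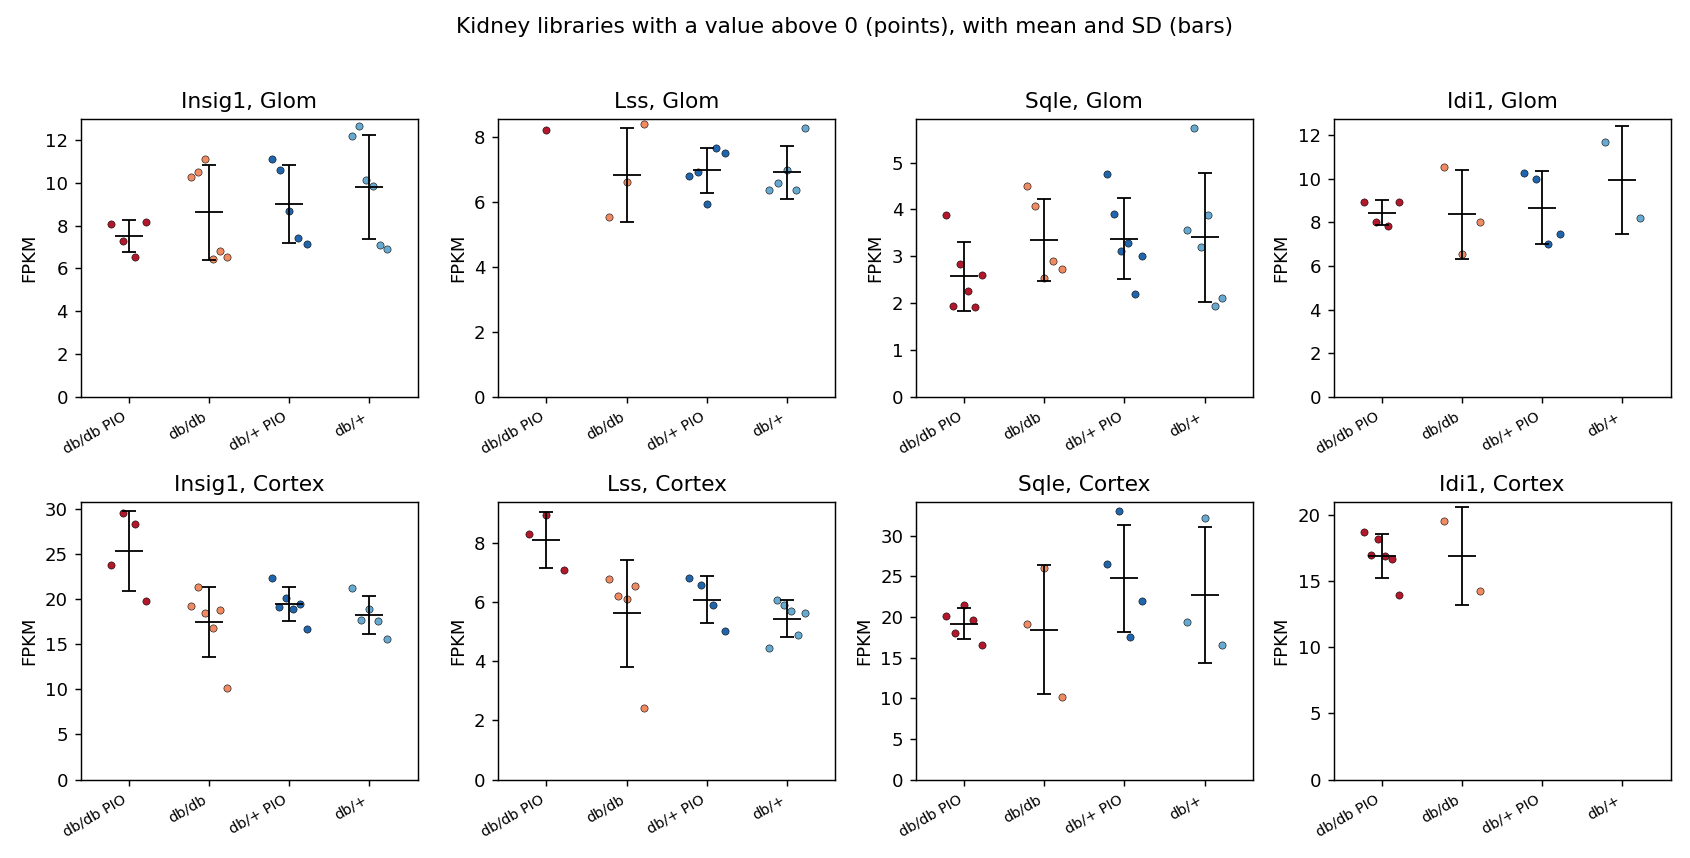
FPKM of Insig1, Lss, Sqle and Idi1 in Glom (upper row) and cortex (lower row), with 1 point per library with a value above 0 and bars for mean and SD, for db/db PIO, db/db, db/+ PIO and db/+. In cortex, Insig1 in db/db PIO lies between 19.81 and 29.51 FPKM, and the db/db library at 10.15 FPKM for Insig1 is also the lowest for Lss (2.41 FPKM) and Sqle (10.16 FPKM).

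The log2 difference of Insig1 for db/db PIO minus db/db in cortex (3.24% of all genes passed) was 0.53 (SE 0.15), with an unadjusted p of 0.00250 and an adjusted p of 0.0599 (limma), just short of the threshold. Over 7 alternatives its adjusted p ranged from 0.0136 to 0.865 and passed in 2, and over 24 fits that left out 1 library it ranged from 0.0429 to 0.147 and passed in 3, without db/db replicate 2, db/db replicate 6 or db/db PIO replicate 6. For db/db PIO minus db/+ PIO (19.7% passed), Insig1 differed by 0.36 (SE 0.15, adjusted p = 0.113, limma). Lss had 8.3, 8.94 and 7.07 FPKM in db/db PIO, against 6.79, 6.21, 6.1, 6.55 and 2.41 FPKM in db/db, 6.8, 6.56, 5.89 and 5.03 FPKM in db/+ PIO, and 4.45 to 6.06 FPKM with a median of 5.65 in 6 db/+ libraries. All 3 db/db PIO values lay above every other cortex value. The share of all genes that separated as fully was not counted. The log2 difference of Lss was 0.52 (SE 0.21, adjusted p = 0.162, limma) for db/db PIO minus db/db and 0.37 (SE 0.22, adjusted p = 0.273, limma) for db/db PIO minus db/+ PIO. Neither passed.

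The library cortex db/db replicate 6 was low for 3 members and had the highest FPKM sum. Without it, Insig1 differed by 0.39 (adjusted p = 0.0429, limma) and Lss by 0.29 (adjusted p = 0.136, limma) for db/db PIO minus db/db, and both passed for db/db PIO minus db/+ PIO, at unchanged differences of 0.36 (adjusted p = 0.0148, limma) and 0.37 (adjusted p = 0.0217, limma), since that library enters the estimate of the spread. Entering each 0 as a value of 0 turned the direction of Insig1 to -1.04 and of Lss to -0.63 for db/db PIO minus db/db, since 2 of 6 db/db PIO libraries then counted as 0 for Insig1 and 3 of 6 for Lss.

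Sqle in cortex had 20.08, 18.09, 21.48, 19.67 and 16.53 FPKM in db/db PIO, against 19.09, 26.09 and 10.16 FPKM in db/db, 26.52, 33.03, 17.57 and 21.92 FPKM in db/+ PIO and 19.34, 32.19 and 16.57 FPKM in db/+. The groups overlapped, and its log2 difference was 0.14 (SE 0.27) for db/db PIO minus db/db and -0.32 (SE 0.25) for db/db PIO minus db/+ PIO. Whether Sqle differed from Insig1 and Lss in its response was not tested. Idi1 had 18.72, 16.98, 18.18, 16.94, 16.72 and 14 FPKM in the 6 db/db PIO libraries, against 19.56 and 14.3 FPKM in 2 db/db libraries and no value in any of the 12 db/+ PIO and db/+ libraries. The values of both groups overlapped, and the number of libraries with a value is not read as a level. Dhcr7 had 6.36 FPKM in 1 db/db PIO library and 7.21 and 5.2 FPKM in 2 db/+ libraries.

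**Figure D4:**
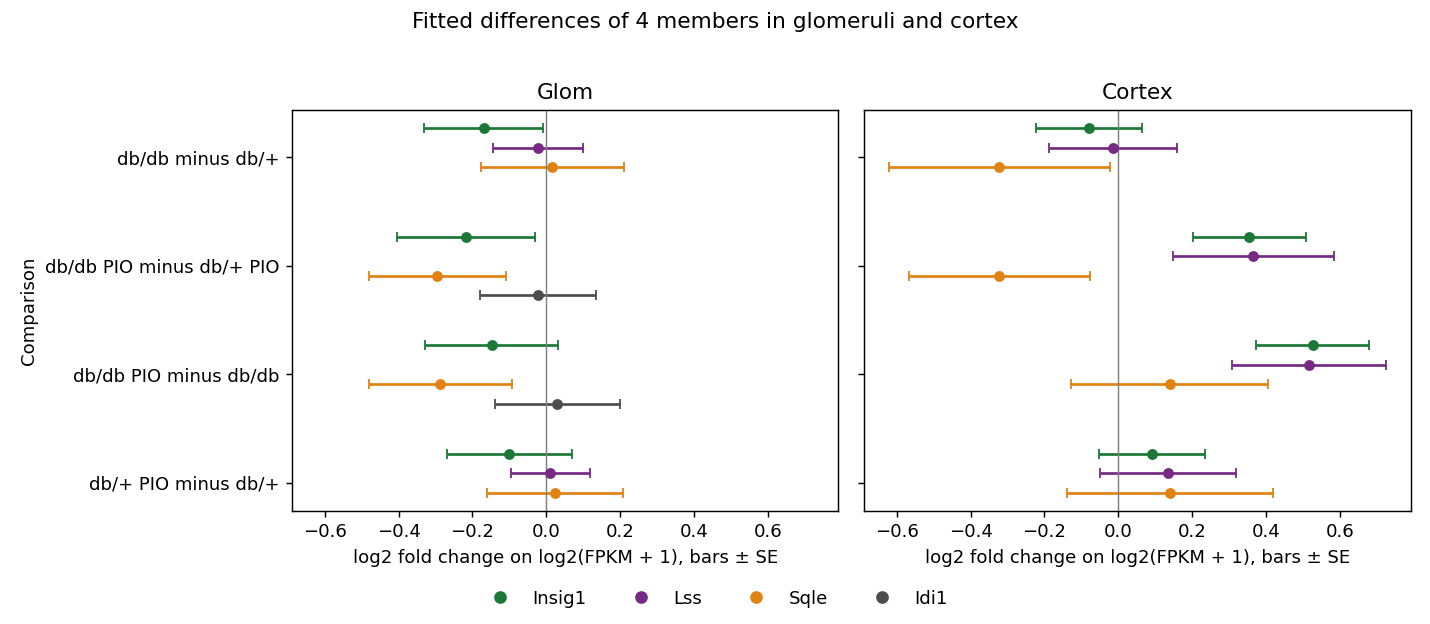
Log2 differences on the log2(FPKM + 1) scale (points) with their SE (bars) for Insig1, Lss, Sqle and Idi1 in Glom (left) and cortex (right), for the 4 comparisons of groups. In cortex db/db PIO minus db/db, Insig1 is at 0.53 and Lss at 0.52, and in Glom all points lie between -0.29 and 0.03.

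The pioglitazone response in db/db minus that in db/+ was 0.44 (SE 0.21, adjusted p = 0.555, limma) for Insig1 in cortex, 0.38 (SE 0.28) for Lss and 0.00 (SE 0.39) for Sqle, where 0.031% of all genes passed. Between the kidney tissues, the response of Insig1 to pioglitazone in db/db was lower in Glom than in cortex, with a difference of -0.67 (SE 0.21, adjusted p = 0.0247, limma), as 1 of 2 members tested in a comparison in which 12.9% of 3923 genes passed. Sqle was at -0.43 (SE 0.30, adjusted p = 0.406, limma). The Insig1 difference kept its sign in 6 of 6 alternatives and passed in 4, with an adjusted p of 0.148 after quantile normalization and a difference of -0.13 (adjusted p = 1, limma) with each 0 as a value, and it passed in 91 of 95 fits that left out 1 library. It missed the threshold without cortex db/db replicate 6 (-0.54, adjusted p = 0.0539, limma), cortex db/db PIO replicate 4 or 5, or Glom db/db PIO replicate 5. In Glom, db/db PIO had no Insig1 value in replicates 1 and 2, where db/db had 10.29 and 10.5 FPKM. What these missing values add to the difference was not tested. The macrophage markers summed to 22.11 to 38.22 FPKM in cortex db/db PIO, 30.73 to 76.7 FPKM in db/db, 39.03 to 102.77 FPKM in db/+ PIO and 53.82 to 110.37 FPKM in db/+, and the proximal tubule markers had medians of 11287.42, 18824.37, 74656.35 and 108.02 FPKM in the same order, with 4 of 9 listed at 0 in every cortex library. These sums too count an exact 0 as 0 and also depend on which markers had a value. The part of these cells in the cortex values was not tested. For the diabetes response in Glom minus cortex (15.8% passed), the members tested were at -0.09 (SE 0.19) for Insig1, -0.01 (SE 0.23) for Lss and 0.34 (SE 0.32) for Sqle, and none passed at an adjusted or unadjusted p below 0.05.

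No further cholesterol enzyme passed in cortex, where 3 or 4 of the 13 could be tested in a comparison. Their median log2 difference was 0.25 for db/db PIO minus db/db and 0.39 for db/db PIO minus db/+ PIO, against -0.05 and -0.02 for all genes. Of the fatty acid synthesis genes under SREBP-1, Elovl6 averaged 5.58 ± 0.849 FPKM in db/db PIO (SD, n = 6) and 2.07 ± 0.903 FPKM in db/+ PIO cortex (SD, n = 6) and rose by 1.13 (SE 0.26, adjusted p = 0.00318, limma). In that comparison 19.7% of all genes passed, and Fasn, the fatty acid synthase, did not (0.27, adjusted p = 0.401, limma). Elovl6 did not pass for db/db PIO minus db/db (0.76, adjusted p = 0.111, limma).

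Insig1 was the only member with a value in each of the 16 groups, so it alone was compared with other genes for its pattern, over the 16 group means of log2(FPKM + 1) and among 2568 genes with at least 3 values in every group. The 5 most similar genes were Nhlrc1, which encodes the ubiquitin ligase malin (Pearson r = 0.975), 2810405K02Rik (r = 0.962), Shisa2 (r = 0.950), Chrna1, a muscle acetylcholine receptor subunit (r = 0.950), and Sfrp5, a secreted Wnt inhibitor (r = 0.947). All 5 had their lowest median in Glom. The highest tissue median was 0.505 FPKM for Chrna1 and 7.015 FPKM for Shisa2. With each tissue's mean removed, the 5 most similar were LOC100503757 (r = 0.834), Mars2, a mitochondrial methionyl-tRNA synthetase (r = 0.823), LOC100503777 (r = 0.768), Eaf1 (r = 0.764) and Bend3 (r = 0.744). These correlations are descriptions over 16 means that share libraries and normalization, and several Insig1 means rest on 2 values.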

How the data were processed

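RNA-Seq was measured in 95 libraries of 4 tissues. The authors placed paired reads on the NCBI 37 (mm9) transcriptome using TopHat and Bowtie, and Cufflinks gave the FPKM. Cufflinks and mm9 also stand in the submitters' processing notes, and versions were not given in the sources used. The deposited FPKM values have 2 decimals and were used without further scaling. The authors' own test, Cuffdiff, needs aligned reads and could not be repeated.

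An exact 0 was taken as missing, since at most 47.3% of entries were above 0 even among genes with a median of at least 1 FPKM. In the marker sums it counted as 0. The test was limma 3.58.1 (R 4.3.3). Values were log2-transformed after adding a pseudocount of 1, variances were moderated with an intensity trend, and the 4 groups of a tissue shared a fit with a mean for each. Genes needed 1 FPKM or more in 5 or more libraries, and 3 or more values in each group compared. Fold changes on this scale understate those of low genes. Comparisons between tissues used the db/+ libraries, and differences of responses all 95. Adjusted p-values are Benjamini-Hochberg values over all genes tested, threshold 0.05. The fit was run on simulated data for db/db minus db/+ within each tissue only. That run does not bear on the fits between tissues, the differences of responses or the reading of 0 as missing. Nothing in the labels says that replicates with the same number share an animal, so p-values measure the spread between these libraries. Those between tissues take the libraries as independent, though tissues may share mice.

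Genes named are the 8 members, the genes of 7 pathway lists that were called or needed beside a result, and the 5 most similar to the members in pattern. That last rule named the mean of the members, which could not be formed over 16 groups, so Insig1 was used instead, chosen after its values were seen. Some genes of the lists are not reported here, though counts over lists include them. Members and lists were chosen with earlier results of these data known. Alternatives were each 0 as a value, a pseudocount of 0.1, no filter, median-of-ratios rescaling, quantile normalization, only the compared groups in the fit, the replicate number as a block, at least 5 values per group, and leaving out each library. Tables and plots were made in Python 3.11.15 with pandas 2.3.3, numpy 2.4.6 and matplotlib 3.10.9.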

Additional observations from a re-analysis of the deposited data

Results flagged for a closer look

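Of 26 groups of a member with 4 to 6 values, 1 held a library far from the others, and chance alone marks about 1 in 20. It was Lss in cortex db/db, where replicate 6 had 2.41 FPKM, against 6.1 to 6.79 FPKM in the 4 other libraries with a value.

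A difference between responses passed its own test for these genes. For the pioglitazone response in db/db, Glom minus cortex (12.9% of all genes passed), it was -0.67 for Insig1 (adjusted p = 0.0247, limma), -1.88 for Elovl6 and -0.69 for Fasn. The parts of the Insig1 value were -0.15 in Glom and 0.53 in cortex, neither past the threshold. The Glom part had no db/db PIO value in replicates 1 and 2, where db/db had 10.29 and 10.5 FPKM. The Fasn call held in 1 of 6 alternatives. For the diabetes response, Glom minus cortex (15.8% of all genes passed), the difference was 1.31 for Abcg1 and 0.86 for Soat1. The calls held in 5 of 6 alternatives for Abcg1, whose lowest difference was -0.095, and in 4 of 6 for Soat1. Within Glom, the pioglitazone response in db/db minus that in db/+ (9.71% of all genes passed) was -1.20 for Elovl6 (adjusted p = 0.000813, limma).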

How the results depend on the processing

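Only 27.6% of the members' entries were above 0. Of the values under alternatives, 2315 kept their direction and their side of the threshold (counts within 1.5 times), and 80 changed sign. A further 35 counts moved, 10 differences came to pass and 11 no longer passed. Differences that passed in neither fit are among those kept, so the number kept does not measure support for a result. Requiring 5 values per group left members to test between tissues for Glom minus cortex alone, where 2 (Insig1 and Lss) passed. The cause of the changes given here was not tested, apart from fits in which a group fell below 3 values. Changes of sign among the log2 differences below concern values that had not passed, save those between tissues.

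With each 0 entered as a value, members passing fell to 0 in db/+ for SCN minus DRG, SCN minus Glom, SCN minus cortex and Glom minus cortex, and to 0 for the pioglitazone response in db/db between Glom and cortex, while 1 passed in cortex db/db PIO minus db/+ PIO. Insig1 became -0.030 for SCN minus Glom, -0.18 for SCN minus cortex, -0.48 for DRG minus Glom, -0.62 for DRG minus cortex, 1.85 for DRG db/+ PIO minus db/+, and in cortex 0.63 for db/db minus db/+, -1.21 for db/db PIO minus db/+ PIO, -1.04 for db/db PIO minus db/db and -1.84 for the difference of pioglitazone responses. Sqle became -0.33 for Glom db/db minus db/+, 0.063 for Glom db/db PIO minus db/db, 0.039 for the difference of responses in Glom, 0.51 for cortex db/db PIO minus db/+ PIO, 0.67 for the difference of responses in cortex and -0.17 for the diabetes response between Glom and cortex. Lss became -0.80 for cortex db/+ PIO minus db/+, -0.29 for cortex db/db PIO minus db/+ PIO, -0.63 for cortex db/db PIO minus db/db and -0.20 for Glom minus cortex.

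A pseudocount of 0.1 gave 0.0057 for the Sqle difference of responses in cortex and 0.0058 for the Lss diabetes response between Glom and cortex. Median-of-ratios rescaling gave -0.026 for Sqle in Glom db/db minus db/+, 0.023 for the Insig1 difference of responses in Glom and -0.086 for Lss in Glom minus cortex, with 1 member (Insig1) passing in cortex db/db PIO minus db/+ PIO and 1 in db/db PIO minus db/db. Quantile normalization gave, in Glom, -0.18 for Sqle in db/db minus db/+, -0.0031 for Lss and -0.0025 for Sqle in db/+ PIO minus db/+, 0.012 for Idi1 in db/db PIO minus db/+ PIO, 0.010 for Sqle in db/db PIO minus db/db, and 0.075 for Insig1 and 0.013 for Sqle in the difference of responses. It gave 0.044 for Lss in cortex db/db minus db/+, -0.17 for Lss in Glom minus cortex, and 0 members passing for the pioglitazone response between Glom and cortex. With only the compared groups in the fit, 1 member passed in cortex db/db PIO minus db/+ PIO. Over all libraries, chosen after seeing the data, 2, 5, 5, 3, 3 and 5 members passed between tissues, against 1, 2, 2, 1, 1 and 3 in db/+, in the order SCN minus DRG, SCN minus Glom, SCN minus cortex, DRG minus Glom, DRG minus cortex and Glom minus cortex.

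Replicate numbers were not taken as pairs, since the labels give no shared source. Not every correlation of same-numbered libraries was above 0.1, a rule so strict that missing it cannot exclude a shared source. These correlations lay between -0.273 and 0.548 in SCN, -0.472 and 0.47 in DRG, -0.381 and 0.455 in Glom, and -0.468 and 0.669 in cortex. Their medians were 0, 0.069, 0.14 and 0.003, against 0.015, 0.004, -0.019 and 0.014 for libraries with other numbers. With the replicate block, 1 member (Insig1) passed in cortex db/db PIO minus db/+ PIO and 1 in db/db PIO minus db/db. The block turned Lss to -0.072 in Glom db/+ PIO minus db/+, Idi1 to 0.21 in Glom db/db PIO minus db/+ PIO, the Insig1 difference of responses in Glom to 0.070, Lss to 0.0061 in cortex db/db minus db/+, Sqle to -0.14 in cortex db/db PIO minus db/db and the Lss diabetes response between Glom and cortex to 0.026.

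Leaving out 1 library gave, in Glom, -0.019 to 0.071 for Lss and -0.081 to 0.16 for Sqle in db/+ PIO minus db/+, -0.048 to 0.036 for Lss and -0.089 to 0.15 for Sqle in db/db minus db/+, -0.12 to 0.036 for the Insig1 difference of responses and -0.11 to 0.056 for Idi1 in db/db PIO minus db/+ PIO. In cortex it gave -0.089 to 0.21 for Lss and -0.14 to 0.059 for Insig1 in db/db minus db/+, -0.15 to 0.15 for the Sqle difference of responses and -0.0060 to 0.29 for Sqle in db/+ PIO minus db/+. The Lss diabetes response between Glom and cortex was -0.23 to 0.066. Members passing were 0 to 1 in cortex db/db PIO minus db/db, 0 to 2 in cortex db/db PIO minus db/+ PIO (2 without cortex db/db replicate 6), 0 to 1 for the pioglitazone response between Glom and cortex, and 1 to 2 in SCN minus Glom and SCN minus cortex, where a lost member had fewer than 3 values left.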
